A study of Mus musculus with 8 samples.

Results

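Cytotoxic T cells taken at the end of 1 week of stimulation were compared with cells of the same regimen that were then left without peptide for 12 days. The comparison used 4 of the 8 RNA-Seq libraries of the series, chosen by their labels alone, and all 24303 genes of the table. All cells were mouse P14 CD8+ T cells from spleen, whose transgenic receptor recognizes the GP33 peptide of lymphocytic choriomeningitis virus. They came from adult mice of either sex, were activated for 2 days on plates coated with anti-CD3 and anti-CD28, and were cultured with interleukin 2 and interleukin 15. Effector cells (2 libraries) received GP33 repeatedly and were collected on day 7. Acute-7d cells (2 libraries) received GP33 until day 7, were kept in peptide-free medium from then on, and were collected on day 19. Of the remaining libraries, which entered the fit for its estimate of spread, the 2 Acute-2d libraries came from cells given no peptide after day 2 and collected on day 19, and the 2 T_Dysf libraries came from cells that received GP33 and TGF-β1 until day 19. The samples were labelled as biological replicates. The activated cells were pooled before the peptide was added, and the labels do not say which mice gave which library. Sex genes, given below, differed between the 2 Acute-7d libraries, so these did not come from the same pool. The p-values measure the spread within all 4 groups of the fit, this difference included. Day and rest cannot be told apart, because no library came from cells rested for a shorter time or stimulated by GP33 alone to day 19.

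After antigen and costimulation, a naive CD8+ T cell enlarges and divides many times over a few days. It draws on glycolysis and on the synthesis of nucleotides, lipids and ribosomes, and it puts inhibitory receptors such as PD-1 on its surface. When antigen is withdrawn, cells that persist leave the cycle, and quiescence is held by factors of the Foxo, Klf and Tob/Btg families while interleukin 7 and interleukin 15 support survival. Granzymes, perforin and interferon-γ are the means by which such cells kill or alert their surroundings.

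Values are normalized counts, estimated reads per gene divided by the size factor of the library, and pairs of values are given in the order replicate 1, replicate 2. Reads on genes ran from 19382147 to 22674337 over the 4 libraries. A level of 3 reads corresponded to between 2.74 and 3.35 normalized counts and is called the floor, which covers counting error only. Of the 10 markers of CD8 T cells, among them *Cd8a*, *Cd3e* and *Thy1*, none was called, and their sum ran from 94546 to 105169. Of 4 markers of CD4 and regulatory T cells *Foxp3* was called, at 6.72 and 2.15 in Effector and at 49.5 and 45.2 in Acute-7d, while *Cd4* was at 1.12 and 1.01 in Acute-7d, under the floor. The sums over these 4 genes were 1451 and 1141 in Effector and 1103 and 1282 in Acute-7d, of which *Zbtb7b* made up most. Of 8 B cell markers 2 were lower in Acute-7d, *Ighm* and *Cd79b*, with sums over the list of 5868 and 6267 in Effector and 2449 and 2493 in Acute-7d, of which *Ighm* made up most. *Ms4a1* reached at most 13.0 in the 4 libraries. *Sdc1* was the single plasma cell marker called, at 18.3 and 19.1 and then at 2.23 and 5.05. None of the 6 myeloid, 8 dendritic, 5 erythroid, 6 NK cell or 5 γδ T cell markers was called, but some were well expressed. *Trdc* was at 7745 and 5302 in Effector and at 9580 and 7894 in Acute-7d, and *H2-Ab1* at 843 and 430 and then at 411 and 547. Of the 6 NK cell markers 5 had a fold change above 0 and 1 below, with *Klrb1c* at 551 and 244 and then at 1005 and 1384. The part of these cells in the results was not tested.

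A label separated the Acute-7d libraries. Only 3 library names of the series begin with RESUB, a prefix that the labels do not explain: those of both Effector samples and that of Acute-7d replicate 1. *Xist*, which is transcribed from the inactive X chromosome of female cells, was at 115 and 53.5 in Effector and at 54.4 and 30427 in Acute-7d. *Ddx3y*, a gene of the Y chromosome, was at 1334 and 1491 in Effector and at 2161 and 0 in Acute-7d. Acute-7d replicate 1 therefore shared the prefix and the sex genes of the Effector libraries, and replicate 2 shared neither, so that prefix and sex genes cannot be told apart. Values of each library stand beside most results below.

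The change between day 7 and day 19 was broad. Of 24303 genes, 1958 (8.06%) were differentially expressed genes (DEGs), which had to pass limma at an adjusted p (Benjamini-Hochberg) below 0.05 and to differ by 2-fold or more on the log2(normalized count + 1) scale that all fold changes here use, with 942 (3.88%) higher and 1016 (4.18%) lower in Acute-7d. The Acute-7d and Effector libraries did not overlap for 13333 genes (54.9%) and for all 1958 DEGs, so separation of the groups adds nothing to a call. Most DEGs were well expressed, with 1511 at a mean of at least 50 over the 4 libraries. Of the 11924 genes with that mean, 657 were higher and 854 lower. Counts in the lists below are to be read against these shares. Rescaling the libraries to equal 75th percentiles, which shifted all fold changes upward by a median of 0.13 on the log2 scale, gave 1184 higher and 813 lower. With a term for the RESUB prefix, which leaves Acute-7d replicate 1 alone to be compared with the Effector libraries, 808 genes (3.32%) were called, and 622 of these were among the 1958 in the same direction. A fit of the 4 libraries without the other groups called 155. It had fewer degrees of freedom and took its spread from these libraries alone. The main fit takes a shared spread per gene for all 4 groups, and whether the groups spread alike was not tested.

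Each Acute-7d library alone was set against the Effector mean. Replicate 1 lay at least 2-fold from it for 7058 genes (29.0%) and replicate 2 for 6271 genes (25.8%), of which 4015 lay on the same side in both and 140 on opposite sides. Among genes with a mean of at least 50, only *Capn11*, *Ccl1* and *Xlr3b* lay on opposite sides. Of the 1958 DEGs, 1909 were at least 2-fold away in the direction of the call in replicate 1 alone, 1787 in replicate 2 alone and 1738 in both. The call itself uses both libraries, so these counts describe the DEGs and do not test them. The libraries also differed from each other: 342 genes with that mean were at least 2-fold apart between the Acute-7d libraries and 489 between the Effector libraries. In the plot of each Acute-7d library against the Effector mean, the genes of mitosis stand above the diagonal, lower in replicate 1 than in replicate 2, while sterol synthesis genes and targets of hypoxia-inducible factor lie along it.

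**Figure D1:**
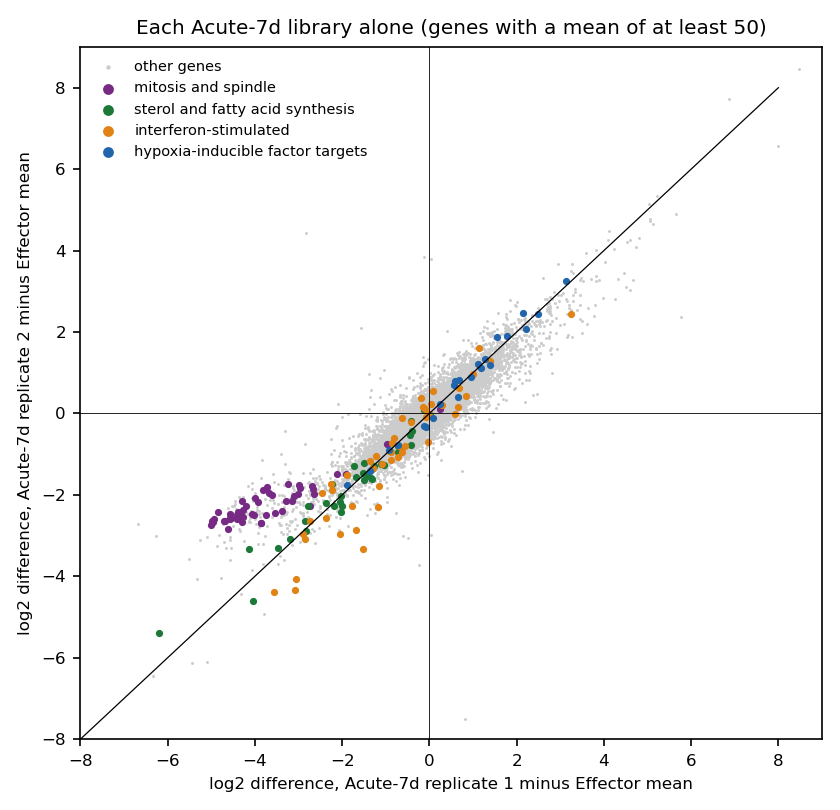
Log2 difference of Acute-7d replicate 1 (x axis) and replicate 2 (y axis) from the mean of the 2 Effector libraries, on log2(normalized count + 1), for genes with a mean of at least 50 over the 4 libraries, without 5 sex-linked genes. Colours mark 4 gene lists and the diagonal marks equal differences; the mitosis and spindle list has a median of -3.96 in replicate 1 and -2.41 in replicate 2.

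Genes of cell division had the lowest medians of the 26 lists. Of 50 mitosis and spindle genes 43 fell, none rose, and the median log2 fold change was -3.23, against 0 over all genes. Of 40 DNA replication genes 35 fell and none rose, with a median of -2.09. The lower level was present in each Acute-7d library alone, with medians of -3.96 and -2.41 for mitosis and -2.43 and -1.81 for replication. Less division in every cell and fewer dividing cells cannot be told apart in bulk RNA.

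*Mki67*, which encodes the proliferation antigen Ki-67 and lies at chr7:135689784-135716450 (GRCm38, as for all positions here), was at 16144 and 28620 in Effector and at 1096 and 3371 in Acute-7d (log2 fold change -3.48 ± 0.63, SE; adjusted p = 0.0308). *Ccna2*, the cyclin of S phase and G2, was at 3592 and 6150 in Effector and at 152 and 775 in Acute-7d (-3.77 ± 0.80; adjusted p = 0.0431). Acute-7d replicate 1 was the lower of its pair for both genes. *Kif2c*, a kinesin that corrects microtubule attachments, was at 883 and 1393 and then at 34.6 and 173, a 14.1-fold lower level. The cyclin *Ccnb1* (1549 and 2813, then 84.1 and 291) and *Nuf2* of the outer kinetochore (1176 and 1783, then 44.6 and 230) showed the same order of libraries, as did the phosphatase *Cdc25c* and the kinesin *Kif4*. *Top2a*, the topoisomerase that untangles sister chromatids, was at 9118 and 17936 and then at 1052 and 3211 (adjusted p = 0.0475). *Hmmr*, a spindle protein, went from 965 and 1535 to 41.3 and 228 and missed the threshold (adjusted p = 0.0544). *Nuf2*, *Ccna2* and *Hmmr* were among the 5 genes of the 26 pathway lists at a mean of at least 50 that differed most between the Acute-7d libraries.

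At the origin of replication, the helicase subunit *Mcm5* was at 5005 and 9708 in Effector and at 722 and 1298 in Acute-7d (log2 fold change -2.85 ± 0.41; adjusted p = 0.0211). The licensing factors *Orc1* (237 and 452, then 22.3 and 24.2) and *Cdc6* (820 and 1843, then 81.4 and 178) were 13.5-fold and 10.1-fold lower. *Gins1* of the replicative helicase and *Mcm10*, which helps to activate it, fell by 3.93 and 3.91 on the log2 scale. *Rrm2*, the regulated subunit of ribonucleotide reductase, was at 3934 and 7509 and then at 204 and 826 (adjusted p = 0.0364). *Uhrf1*, which carries DNA methylation through replication, was at 4433 and 8727 and then at 236 and 700. For each of these genes Effector replicate 2 was the highest of the 4 libraries.

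The number of cell division genes called depended on single libraries, while their direction did not. The main fit shares its spread with Acute-2d and T_Dysf, whose libraries lay closer together for mitosis genes than those of Effector or Acute-7d. Library medians from the Effector mean were -0.31 and 0.31 in Effector and -3.96 and -2.41 in Acute-7d. They were -2.59 and -2.92 in Acute-2d and -1.15 and -1.43 in T_Dysf. Without Acute-7d replicate 1, 4 mitosis genes and 1 replication gene were called lower, and without Effector replicate 2, 1 and 16, with list medians between -3.96 and -1.76 for both lists over all 8 libraries left out in turn. With the RESUB term, 45 mitosis and 13 replication genes were called lower, without either T_Dysf library 3 and 7, and in the fit of the 4 compared libraries none of either list.

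Promoters of the reduced genes were read for words known from cell cycle genes, because the members of these lists moved together. The E2F word was searched as TTTGGCGC, TTTCCCGC, TTTCGCGC or TTTGCCGC, the CHR word (cell cycle genes homology region) as TTTGAA, and the NF-Y word as CCAAT, each on both strands. E2F and CHR words cannot share bases, and a CCAAT word can share an end base with either. Windows ran from 250 bases before to 50 bases after the start in RefSeq (GRCm38.p6), 1 window per gene, the first listed. By symbol, 13674 genes of the table, 32 replication genes and 41 mitosis genes had one. An E2F word was present in 12 of 32 replication windows (37.5%), 3 of 41 mitosis windows (7.32%), 3.55% of the windows of the table and 2.32% of all 27025 windows of the genome. The CHR word was present in 31 of 41 mitosis windows (75.6%), 4 of 32 replication windows (12.5%) 14.0% of the table and 18.1% of the genome. CCAAT was found in 73.2%, 59.4%, 38.7% and 37.9%, in the same order. Both CHR and CCAAT stood in 63.4% of mitosis windows, 9.38% of replication windows and 5.88% of the table. These shares describe letters and were not tested.

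For each list, the 250 bases before the start are shown for 2 reduced genes that hold the list's word there. They are examples and need not be the most reduced such genes of their list. The bases run 5′ to 3′ on the strand of the gene, to set an E2F promoter beside a CHR promoter. Capitals mark E2F, CHR and CCAAT words on either strand.
Orc1, chr4:108579204-108579453, plus strand: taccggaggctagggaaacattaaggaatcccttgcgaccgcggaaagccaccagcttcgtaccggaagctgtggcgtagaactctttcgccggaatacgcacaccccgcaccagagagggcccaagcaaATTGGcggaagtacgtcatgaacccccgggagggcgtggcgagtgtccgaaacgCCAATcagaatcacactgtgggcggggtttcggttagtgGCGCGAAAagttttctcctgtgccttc
Cdc6, chr11:98907901-98908150, plus strand: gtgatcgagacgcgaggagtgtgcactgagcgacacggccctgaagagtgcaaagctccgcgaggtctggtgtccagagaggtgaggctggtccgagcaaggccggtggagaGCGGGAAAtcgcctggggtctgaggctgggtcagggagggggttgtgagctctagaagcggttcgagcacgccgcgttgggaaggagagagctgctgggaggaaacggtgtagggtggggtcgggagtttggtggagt
Kif2c, chr4:117178773-117179022, minus strand: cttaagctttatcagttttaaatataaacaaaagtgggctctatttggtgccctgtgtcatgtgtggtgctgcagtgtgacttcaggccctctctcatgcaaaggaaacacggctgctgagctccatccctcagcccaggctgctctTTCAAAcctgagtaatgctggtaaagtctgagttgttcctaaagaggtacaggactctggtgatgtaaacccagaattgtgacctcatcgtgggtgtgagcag
Ccnb2, chr9:70421555-70421804, minus strand: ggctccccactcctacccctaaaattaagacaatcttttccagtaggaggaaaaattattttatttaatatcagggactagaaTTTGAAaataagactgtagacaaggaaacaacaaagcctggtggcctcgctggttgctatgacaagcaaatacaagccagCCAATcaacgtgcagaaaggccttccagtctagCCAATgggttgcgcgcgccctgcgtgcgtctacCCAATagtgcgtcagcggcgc
In *Orc1* the E2F word begins 27 bases before the start and lies downstream of both CCAAT words. *Ccnb2*, a mitotic cyclin, holds 3 CCAAT words that begin 87, 54 and 21 bases before the start, and its level went from 2399 and 3253 in Effector to 107 and 448 in Acute-7d. *Cdc6* and *Kif2c* hold 1 word each in these bases. The stretches of *Orc1*, *Cdc6* and *Kif2c* lie inside the annotated span of their gene, chr4:117159633-117182624 for *Kif2c*. The start used for these genes therefore lies downstream of the outermost one.

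Genes of cell cycle entry followed, both activators and repressors, and 1 inhibitor of the cycle moved the other way. Of 30 genes of cell cycle entry 13 fell and 1 rose, with a median of -1.09, and of -1.15 and -0.88 in the libraries alone. *E2f1*, an activator of replication genes, was at 940 and 1298 in Effector and at 159 and 259 in Acute-7d (log2 fold change -2.43 ± 0.28; adjusted p = 0.0151). The repressive family members *E2f8* and *E2f7* fell by 3.63 and 2.88, and the mitotic activators *Mybl2* and *Foxm1* by 3.40 and 2.46. Cyclin E1 (*Ccne1*) was at 992 and 1709 and then at 122 and 171. The single gene that rose was *Cdkn1b*, which encodes the cyclin-dependent kinase inhibitor p27, at 1868 and 1965 and then at 4981 and 4672.

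Of 31 quiescence genes 12 rose and 1 fell, with a median of 0.77 in the fit and of 0.78 in each Acute-7d library alone. *Txnip*, which restrains glucose uptake, was at 16542 and 7892 in Effector and at 54862 and 55129 in Acute-7d (log2 fold change 2.27 ± 0.36; adjusted p = 0.0248). *Btg1* was at 5482 and 3941 and then at 18242 and 14621, and the related antiproliferative gene *Tob1* was at 283 and 266 and then at 908 and 545. *Klf4*, a repressor of T cell proliferation, was at 26.5 and 20.1 and then at 377 and 170, and *Socs3*, the feedback inhibitor of cytokine receptors, at 446 and 483 and then at 2521 and 1407. *Ypel3* rose by 1.93 on the log2 scale. The gene that fell was *Rasa2*, a GTPase-activating protein for Ras, at 586 and 840 and then at 331 and 327. *Foxp3*, given above among the markers, is a member of this list too, and it was not called with the RESUB term. Without Acute-7d replicate 1, 1 quiescence gene and no more than 1 of the cell cycle entry genes were called in the stated directions.

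Lipid synthesis fell as a group, and here the Acute-7d libraries were alike. Of 38 sterol and fatty acid synthesis genes 26 fell and none rose, with a median of -1.48, and of -1.50 and -1.54 in the libraries alone. *Hmgcs1*, which makes the precursor of mevalonate, was at 7708 and 4844 in Effector and at 841 and 977 in Acute-7d (log2 fold change -2.75 ± 0.24; adjusted p = 0.0109). Further along the pathway, *Idi1* was at 3242 and 3372 and then at 187 and 328 (-3.73 ± 0.26), *Fdps* at 2914 and 2047 and then at 263 and 285 (-3.15 ± 0.23), and *Cyp51* at 4582 and 4019 and then at 385 and 431 (-3.39 ± 0.10). For *Idi1*, *Fdps*, *Cyp51* and *Hmgcs1* the Acute-7d replicate 2 value was the higher of its pair.

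Desaturases were the most reduced of the lipid genes. *Fads2*, at chr19:10062765-10101503, was at 1388 and 1079 in Effector and at 15.6 and 28.3 in Acute-7d, a 55.5-fold lower level (adjusted p = 0.00516). *Scd1*, which introduces the first double bond into saturated fatty acids, was at 1826 and 817 and then at 72.6 and 49.5 (log2 fold change -4.32 ± 0.44). Leaving out single libraries left between 11 and 25 genes of the list called lower, with the fewest without Acute-7d replicate 1, and the RESUB term left 16.

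**Figure D2:**
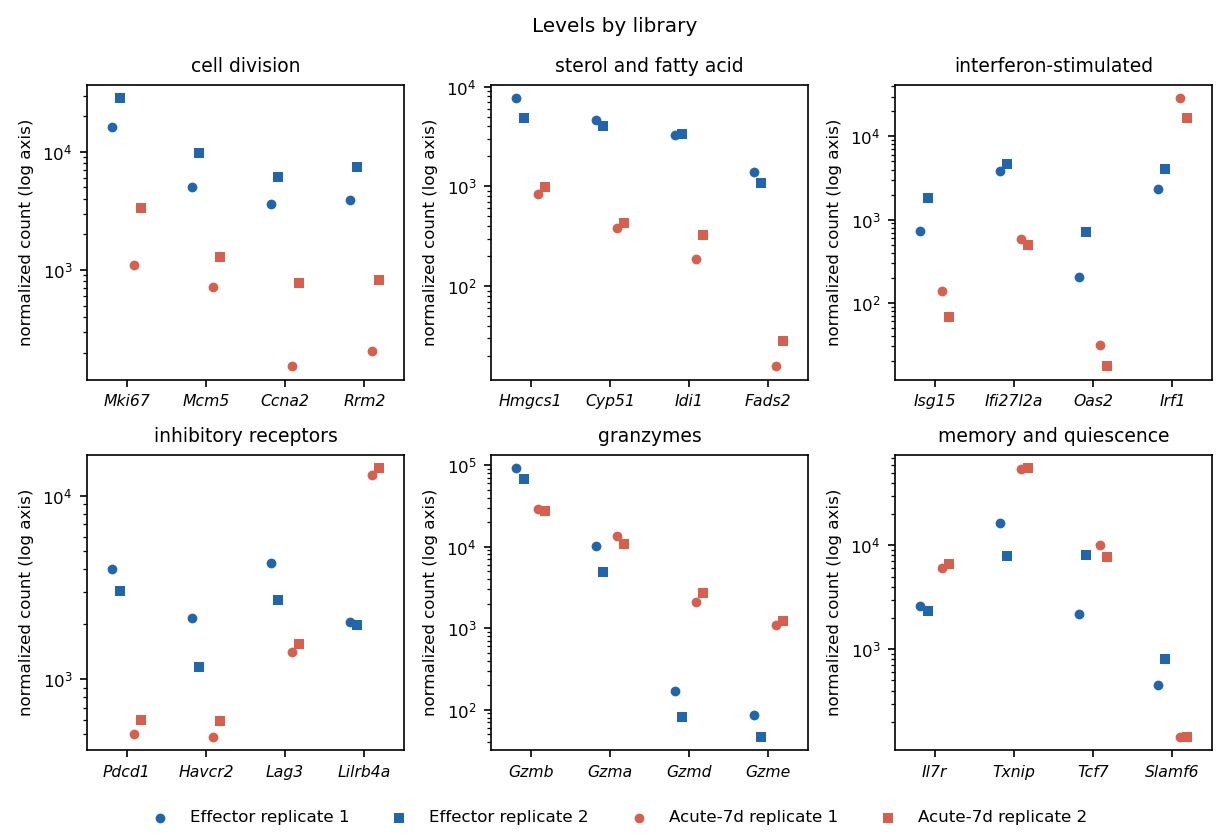
Normalized counts (log axis) of 24 genes in the 2 Effector libraries (blue) and the 2 Acute-7d libraries (red), circles for replicate 1 and squares for replicate 2, in 6 panels by function. The red points of *Hmgcs1* lie at 841 and 977 below blue points at 7708 and 4844, while the points of *Tcf7* overlap.

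Supply of building blocks was lower to a lesser degree. Of 30 nucleotide and serine-folate synthesis genes 12 fell and none rose (median -0.93, and -1.05 and -0.84 in the libraries alone). *Psat1* of serine synthesis was at 3172 and 4645 in Effector and at 735 and 1053 in Acute-7d (log2 fold change -2.12 ± 0.24; adjusted p = 0.0155), and *Shmt1*, which moves 1-carbon units from serine to folate, at 1111 and 1968 and then at 261 and 275. *Ppat*, the first committed enzyme of purine synthesis, fell by 1.91 on the log2 scale, *Ctps*, which makes CTP, fell by 2.05, and the mitochondrial folate enzyme *Mthfd2* fell by 1.56. Of 21 amino acid transporters 3 were lower and 1 higher, against 4.18% lower and 3.88% higher over all genes. *Slc7a5*, the carrier of large neutral amino acids, was at 5911 and 9322 and then at 2111 and 2640, and *Slc43a3* and *Slc7a1* were lower as well. *Slc38a7* reached 294 and 375 from 192 and 142, barely past both limits (2.003-fold; adjusted p = 0.04998). With equal totals or a replicate block no transporter was called higher. Of 36 ribosome biogenesis genes 8 fell and none rose (median -0.71), among them *Nop2*, at 2286 and 2687 and then at 974 and 940, and *Gar1* of the pseudouridylation complex, at 1516 and 2233 and then at 677 and 681. All but 1 of the 36 had a fold change below 0. The counts for these lists depended on single libraries. Leaving out Acute-7d replicate 1, no nucleotide synthesis gene, 1 transporter and 1 ribosome biogenesis gene were called lower, without Acute-7d replicate 2 they were 4, 1 and 2, without either T_Dysf library 5, 1 and 4, and without Effector replicate 1 they were 17, 3 and 15.

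In energy metabolism few genes were called. Of 61 respiratory chain genes 5 fell and none rose (median -0.57, and -0.59 and -0.57 in the libraries alone). Over all genes 4.18% were lower. All 61 had a mean of at least 50, and of the 11924 genes with that mean 854 were lower, a share near that of this list. *Cox5a* of complex IV was at 2498 and 2633 in Effector and at 1242 and 1164 in Acute-7d (log2 fold change -1.09 ± 0.07; adjusted p = 0.00653), and *Ndufa4* at 1334 and 2089 and then at 455 and 471. The succinate dehydrogenase subunit *Sdhb* fell by 1.11 on the log2 scale. In fatty acid oxidation 1 of 29 genes fell, a share below that of all genes, *Acadl*, at 3321 and 3660 and then at 1646 and 1767. Without Acute-7d replicate 1, 1 respiratory gene and no fatty acid oxidation gene were called, and with the RESUB term 2 and 2.

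Glycolysis had a median of 0, with 4 genes higher and 2 lower of 26. *Slc2a1*, the glucose transporter GLUT1, was at 1164 and 1545 in Effector and at 3513 and 3058 in Acute-7d, and *Pdk1*, which shuts pyruvate out of the mitochondrion, at 2453 and 2018 and then at 5383 and 5629. The related kinase *Pdk2* and the phosphofructokinase *Pfkl* rose by 1.54 and 1.03. *Eno2*, an enolase, fell from 80.4 and 44.1 to 13.4 and 12.1. *Slc16a1*, a carrier of lactate, was at 1814 and 2781 and then at 706 and 831. With the RESUB term and without Acute-7d replicate 1, no glycolysis gene was called.

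*Slc2a1* and *Pdk1* are also targets of hypoxia-inducible factor, of which 8 of 24 rose and 1 fell (median 0.76, and 0.73 and 0.81 in the libraries alone). *Egln3*, a prolyl hydroxylase that marks the factor for degradation, was at 581 and 749 in Effector and at 3077 and 2801 in Acute-7d (log2 fold change 2.15 ± 0.22; adjusted p = 0.0136). *Vegfa* was at 222 and 138 and then at 781 and 969, and *P4ha1*, which hydroxylates collagen, at 987 and 879 and then at 3176 and 3461. *Ankrd37* rose from 43.9 and 59.2 to 291 and 282. The member that fell was *Anxa2*, a calcium-dependent membrane protein, at 11231 and 7824 and then at 3651 and 3492. Leaving out Acute-7d replicate 1 left 1 target called higher, and the RESUB term 2.

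Of 48 interferon-stimulated genes 17 fell, 2 rose and 29 were not called, with a median of -0.85, and of -0.83 and -0.95 in the libraries alone. *Isg15*, the ubiquitin-like modifier, was at 725 and 1819 in Effector and at 137 and 67.7 in Acute-7d (log2 fold change -3.56 ± 0.58; adjusted p = 0.0257). *Ifi27l2a* was at 3800 and 4679 and then at 581 and 495 (-2.97 ± 0.24; adjusted p = 0.00996). The oligoadenylate synthetase *Oas2* was at 203 and 707 and then at 31.2 and 17.2, and *Oasl1* at 163 and 220 and then at 24.5 and 23.2. *Mx2*, annotated here as a transcribed pseudogene, was at 201 and 296 and then at 27.9 and 11.1. Acute-7d replicate 2 was the lowest of the 4 libraries compared for each of these 5 genes.

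*Gbp4*, an interferon-induced GTPase, rose from 6301 and 8326 to 18976 and 17749. *Irf1*, at chr11:53770014-53778374, was the other member that rose. This transcription factor, induced by interferon-γ and by receptor signals, was at 2332 and 4004 in Effector and at 29014 and 16637 in Acute-7d, a 7.19-fold higher level (adjusted p = 0.0178). Without Acute-7d replicate 1 and with the RESUB term, 1 interferon-stimulated gene was called lower, against 18 without Effector replicate 1.

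Inhibitory receptors did not move as a block. Of 26 genes of this list, 7 fell and 4 rose, and the median was -0.25. *Pdcd1*, which encodes PD-1 and lies at chr1:94038305-94052553, was at 4017 and 3043 in Effector and at 505 and 598 in Acute-7d (log2 fold change -2.67 ± 0.20; adjusted p = 0.00886), a 6.35-fold lower level. *Havcr2*, which encodes Tim3, was at 2152 and 1173 and then at 484 and 595, and *Lag3* at 4331 and 2711 and then at 1415 and 1563. *Tigit* was at 1860 and 977 and then at 425 and 351. All 4 receptors were higher in Effector replicate 1 than in replicate 2, the reverse of the cell division genes. *Btla* (928 and 1036, then 289 and 242) also fell, as did *Cd200* (180 and 262, then 26.8 and 23.2), which encodes a ligand and not a receptor.

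The members that rose included *Nt5e*, the ectoenzyme CD73 that makes adenosine, which is counted in the memory and stemness list too. It was at 138 and 108 in Effector and at 955 and 927 in Acute-7d (log2 fold change 2.93 ± 0.14; adjusted p = 0.00321). *Lilrb4a*, an inhibitory immunoglobulin-like receptor, was at 2049 and 1985 and then at 13078 and 14136 (2.75 ± 0.13; adjusted p = 0.00312). The checkpoint receptor VISTA, encoded by *Vsir*, was at 3480 and 2673 and then at 10736 and 9683, and *Cd200r1*, the receptor of CD200, was at 106 and 76.2 and then at 212 and 315. With the RESUB term, 2 members of the list were called lower and 3 higher, and *Havcr2*, *Lag3* and *Tigit* were no longer called.

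Genes that receptor signals induce were also divided, with 7 of 35 lower and 5 higher (median -0.22, and 0.02 and -0.56 in the libraries alone). *Tox*, the factor that accompanies lasting stimulation, was at 403 and 690 in Effector and at 51.3 and 107 in Acute-7d (log2 fold change -2.81 ± 0.47; adjusted p = 0.0266). *Nr4a1*, an orphan nuclear receptor used as a readout of recent receptor signals, was at 380 and 649 and then at 83.7 and 128, and *Rgs16*, a brake on G protein signals, at 1142 and 2262 and then at 400 and 490. *Cd69*, known as an early activation antigen and as a retention signal in tissue, was higher in Acute-7d, at 1077 and 1385 and then at 5412 and 5367 (2.14 ± 0.13; adjusted p = 0.00561). It was also high in the other day 19 libraries, at 7469 and 7178 in Acute-2d and at 7866 and 8298 in T_Dysf, which was not rested. *Dusp6*, a phosphatase of the ERK kinases, was at 2403 and 1054 and then at 7724 and 7315. Without Acute-7d replicate 1, 1 gene of this list was called higher and none lower.

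Among 29 genes of granules and killing 4 rose and 1 fell, against 3.88% higher and 4.18% lower over all genes. The gene that fell was *Gzmb*. It was at 90949 and 66735 in Effector and at 29274 and 27049 in Acute-7d, a 2.77-fold lower level (adjusted p = 0.0220), and with the RESUB term it was not called. Granzymes D, E, F and G rose. *Gzmd* was at 171 and 82.3 in Effector and at 2070 and 2667 in Acute-7d, 19.7-fold higher (adjusted p = 0.0113), and *Gzme* at 85.9 and 46.2 and then at 1100 and 1229, 18.2-fold higher. *Gzmf* was at 23.8 and 18.1 and then at 130 and 215. *Gzmg*, at chr14:56156581-56159579, was at 15.5 and 0 and then at 474 and 858. These 4 genes are near-identical neighbours on chromosome 14, so reads could have been divided between them in counting, and their separate levels are uncertain. *Gzmg* was not called with the RESUB term (adjusted p = 0.124), nor was it with a replicate block or without either Acute-7d library, and without Acute-7d replicate 1, 1 gene of the list was called higher. *Gzma* was at 10176 and 4933 in Effector and at 13312 and 10898 in Acute-7d, and *Prf1*, which encodes perforin, at 5647 and 3207 and then at 2835 and 3591. Neither passed the test (adjusted p = 0.237 and 0.419), and for *Prf1* the groups overlapped.

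Cytokines and chemokines gave 2 genes higher and 2 lower of 28, against 3.88% higher and 4.18% lower over all genes. The chemokines *Ccl3* (545 and 805, then 31.2 and 91.9) and *Ccl4* (551 and 616, then 66.9 and 128) were 12.1-fold and 6.23-fold lower. *Spp1*, which encodes osteopontin, was at 900 and 817 and then at 2867 and 3500 (log2 fold change 1.88 ± 0.15; adjusted p = 0.00971), and *Flt3l* rose by 1.04. *Ifng* was at 569 and 838 in Effector and at 859 and 556 in Acute-7d, and *Tnf* at 303 and 835 and then at 881 and 598. The groups overlapped for both cytokines (adjusted p = 1 and 0.581). *Ccl1* was at 17.4 and 83.3 and then at 12.3 and 167, so the Acute-7d libraries lay on both sides of Effector. Without Effector replicate 2 no gene of this list was called lower.

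Of 30 memory and stemness genes 7 rose and 1 fell, with a median of 0.50, and of 0.64 and 0.45 in the libraries alone. Under the RESUB term, and without either Acute-7d library, 3 were called higher and none lower, and *Tnfsf8*, *Cd55*, *Bcl6* and *Slamf6* were not called with that term. *Il7r*, the receptor chain for interleukin 7, was at 2636 and 2314 in Effector and at 5993 and 6575 in Acute-7d (log2 fold change 1.34 ± 0.10; adjusted p = 0.00822). *Tnfsf8*, the ligand of CD30, was at 721 and 1358 and then at 3452 and 3622, *Cd55*, which restrains complement, at 371 and 257 and then at 884 and 857, and the repressor *Bcl6* at 59.4 and 48.1 and then at 191 and 145. *Slamf6*, which encodes Ly108, was lower, at 452 and 807 and then at 143 and 143. The memory factor *Tcf7* was at 2178 and 8065 in Effector and at 9991 and 7789 in Acute-7d, and *Ccr7*, the lymph node homing receptor, at 461 and 2006 and then at 1718 and 1790. For both, Effector replicate 2 lay within or above the Acute-7d range and Effector replicate 1 lay below it (adjusted p = 0.347 and 0.545). *Lef1* (2046 and 2077, then 2281 and 2846) and *Cd27* (2665 and 3263, then 3079 and 2747) differed by 0.31 and -0.02 on the log2 scale and were not called.

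Of 31 effector and residency transcription factors 8 rose and none fell. *Jun* was at 989 and 477 in Effector and at 8352 and 3157 in Acute-7d (log2 fold change 2.90 ± 0.56; adjusted p = 0.0359), and its partners *Fosb* and *Fosl2* were at 146 and 95.3 and then at 2713 and 1018, and at 662 and 746 and then at 6217 and 2599. In all 3 genes of this AP-1 family, Acute-7d replicate 1 was the highest of the 4 libraries compared. *Maf* was at 55.7 and 78.2 and then at 727 and 332, *Klf6* at 3652 and 3547 and then at 19068 and 12522, and the nuclear receptor *Rora* at 350 and 451 and then at 1860 and 1374. Without Acute-7d replicate 1 none of the 31 was called higher, and the list medians were 0.52 in replicate 1 alone and 0.10 in replicate 2 alone. The factors of effector differentiation were not called. *Tbx21*, which encodes T-bet, was at 2398 and 2189 and then at 964 and 1323 (adjusted p = 0.0821), *Eomes* at 1887 and 1542 and then at 3510 and 2071 (adjusted p = 0.258), and *Prdm1*, which encodes Blimp-1, at 1127 and 596 and then at 927 and 413 (adjusted p = 0.686).

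Homing and egress gave 2 genes higher of 36, near the 3.88% of all genes called higher. *Itga1*, the collagen-binding integrin chain CD49a at chr13:114958079-115101964, was at 117 and 90.5 in Effector and at 2889 and 2065 in Acute-7d (log2 fold change 4.56 ± 0.20; adjusted p = 0.00262). *S1pr1*, which draws lymphocytes into blood and lymph, was at 2035 and 1480 and then at 3576 and 3391 (adjusted p = 0.0482), and was not called with the RESUB term. Its activator *Klf2* (1231 and 1105, then 1868 and 1582) was not called, nor was the chemokine receptor *Cxcr3* (4708 and 5491, then 5877 and 5405).

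Among 32 cytokine receptors 4 rose and 2 fell, against 3.88% higher and 4.18% lower over all genes. *Il2ra*, the high-affinity chain of the interleukin 2 receptor, was at 6400 and 11200 in Effector and at 2637 and 2728 in Acute-7d (log2 fold change -1.66 ± 0.26; adjusted p = 0.0246). *Il4ra* (3869 and 4332, then 9968 and 8366) and the TGF-β receptors *Tgfbr2* (3237 and 2950, then 7484 and 6950) and *Tgfbr3* (95.9 and 157, then 285 and 367) rose. With the RESUB term *Il2ra*, *Tgfbr3* and *Il1rl1*, given below, were not called, while *Il4ra* and *Tgfbr2* were. In the fit of the 4 compared libraries no cytokine receptor was called. None of 30 NK-type receptors was called, and their median was -0.37 in Acute-7d replicate 1 alone and 0.58 in replicate 2 alone. Of 31 genes of the T cell receptor complex and its kinases, *Ptpn6*, the phosphatase SHP-1, was the single call, at 8381 and 8011 and then at 2824 and 3545.

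In the survival and death list 5 of 30 genes fell and none rose. *Casp8*, the initiator caspase of death receptors, and the pore-forming *Bak1* fell by 1.04 and 1.22 on the log2 scale. The prosurvival paralogs *Bcl2a1d* (504 and 542, then 61.9 and 122) and *Bcl2a1b* (672 and 892, then 339 and 421) fell too, but share sequence, so their separate levels are uncertain. *Bcl2* was at 9259 and 8001 and then at 13594 and 15238, with an adjusted p of 0.0262 and a log2 fold change of 0.74 ± 0.12, below the 2-fold limit. *Bmf*, a death activator, was at 409 and 56.2 and then at 58.0 and 299, and the groups overlapped.

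Of 34 stress response genes 3 fell and 3 rose, against 4.18% lower and 3.88% higher over all genes. The chaperones *Hspd1* (4175 and 7340, then 1753 and 2023) and *Sdf2l1* (1170 and 1877, then 382 and 388) and the secreted factor *Manf* fell. *Dnajb9* (178 and 202, then 570 and 595) and *Ppp1r15a*, which reverses the translational arrest of the integrated stress response, at 505 and 446 and then at 1173 and 1228, rose, as did the lipoprotein receptor *Vldlr*, at 7.31 and 1.003 and then at 72.5 and 99.97. Of 25 genes of DNA methylation and Polycomb 5 fell and 2 rose. *Dnmt1*, the maintenance methyltransferase, was at 7132 and 12910 in Effector and at 2075 and 2488 in Acute-7d (log2 fold change -2.08 ± 0.31; adjusted p = 0.0217). *Ezh2* of Polycomb was at 2581 and 4296 and then at 901 and 1206, while its paralog *Ezh1* was at 1066 and 800 and then at 2336 and 2747. *Cbx7*, a Polycomb reader, rose from 3347 and 2699 to 7813 and 6234. The histone methyltransferases *Suv39h1* and *Suv39h2* fell by 1.42 and 2.51. With the RESUB term, 1 gene of the stress list was called, and of the methylation list 1 lower and 1 higher.

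**Figure D3:**
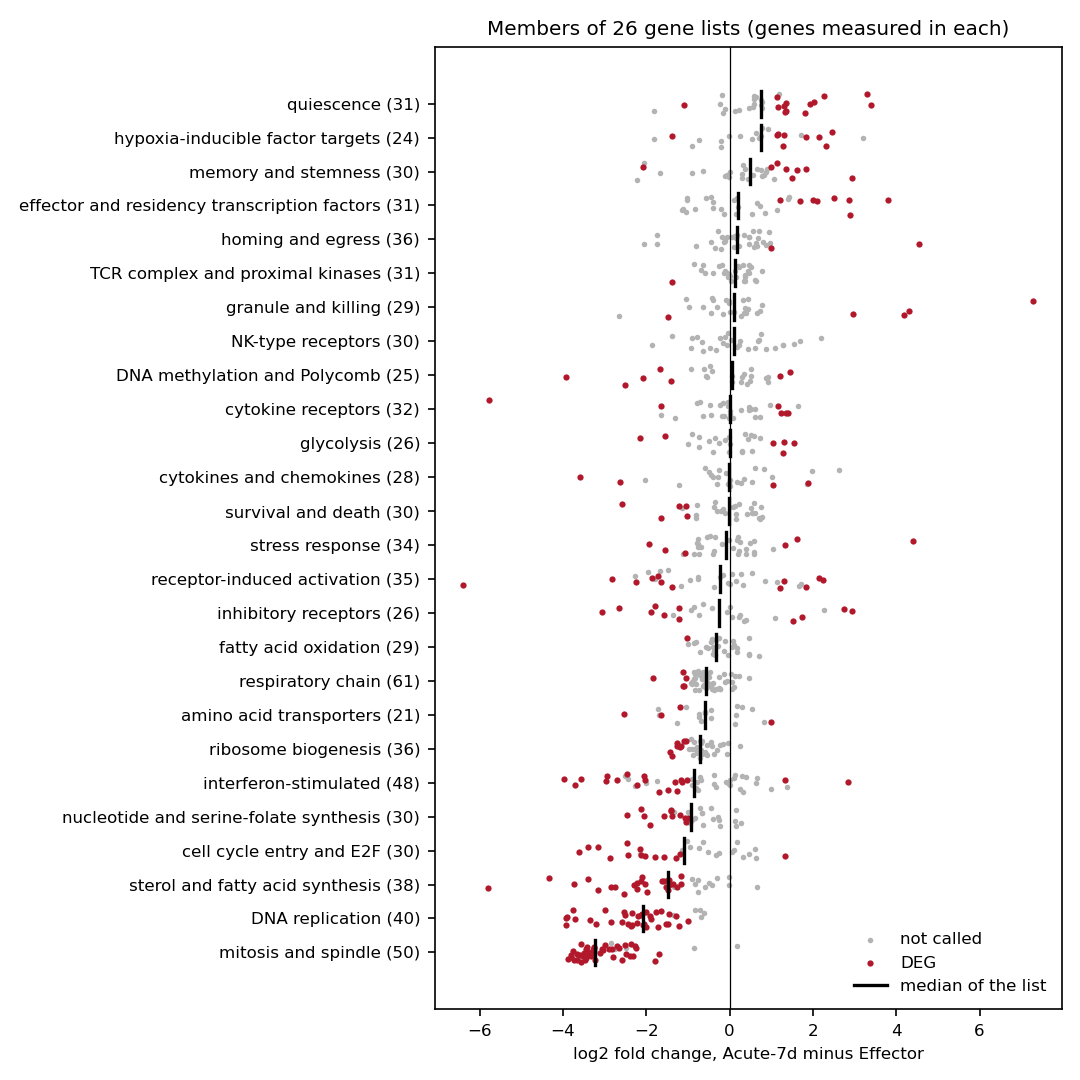
Log2 fold change of Acute-7d over Effector (x axis) for every measured member of 26 gene lists (rows, with the number of genes measured), red for DEGs and grey for genes not called, with a black bar at the median of each list. Medians run from -3.23 for mitosis and spindle to 0.77 for quiescence.

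The genes with the largest changes were not confined to these lists. They were taken as the 10 in each direction with a mean of at least 50 in which each Acute-7d library was at least 2-fold from both Effector libraries. *Cntn1*, at chr15:92051152-92341967, which encodes the neuronal adhesion molecule contactin, had no read in either Effector library and was at 353 and 350 in Acute-7d, at least 116-fold higher when the lower of these is set against the higher Effector floor. It was also present in the other day 19 libraries, at 241 and 201 in Acute-2d and at 268 and 216 in T_Dysf. *Crisp1*, a secreted protein known from the epididymis, was at 1.83 and 0 and then at 424 and 159. Other adhesion molecules were the cadherins *Cdh1* (103 and 13.0, then 1920 and 1146) and *Dsc2* (10.05 and 4.01, then 196 and 125) and the neural cell adhesion molecule *Ncam2* (5.48 and 5.02, then 208 and 166). The phosphatase subunit *Ppp2r2c* was at 55.7 and 19.1 and then at 1129 and 922, *Qpct*, which forms pyroglutamate at protein ends, at 11.9 and 8.03 and then at 260 and 207, and *Tmem273* at 38.4 and 3.01 and then at 412 and 445. *Itga1* and *Gzmg*, given above, complete these genes. Each gene that rose here was also above both Effector libraries in every Acute-2d and T_Dysf library. *Cdh1* (12261 and 13187), *Itga1* (9359 and 9508), *Tmem273*, *Ppp2r2c*, *Qpct* and *Dsc2* were higher in T_Dysf, which was not rested, than in Acute-7d. *Cntn1*, *Gzmg*, *Crisp1* and *Ncam2* were lower there.

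Among genes that fell, *Batf3*, an AP-1 factor at chr1:191098414-191108943, was at 197 and 624 in Effector and at the floor of 3.35 and 3.03 in Acute-7d. *Il1rl1*, the receptor ST2 for interleukin 33, was at 63.1 and 305 and then at 2.23 and 1.01, under the floor. *Tnfrsf8*, which encodes CD30, was at 560 and 1024 and then at 21.2 and 10.1, while its ligand *Tnfsf8* rose. The adhesion molecule *Chl1* was at 305 and 73.2 and then at 4.46 and 8.08, and thyroglobulin (*Tg*) at 84.1 and 139 and then at 4.46 and 4.04. *Aunip*, a partner of Aurora A kinase, and the centromere gene *Cenpp* were at 289 and 421 and at 147 and 189 in Effector, and at 6.69 and 28.3 and at 3.35 and 18.6 in Acute-7d. *Ddn* completes the list beside *Fads2* and *Scd1*. With the RESUB term, 12 of these 20 genes were still called, 7 higher and 5 lower.

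The levels in Acute-7d were set beside those in Acute-2d, collected on the same day after a longer rest. The library names of Acute-2d lack RESUB, and its sex genes differ from those of Effector. *Xist* was at 26861 and 22106 in Acute-2d and *Ddx3y* at 0 and 0. T_Dysf likewise had *Xist* at 21871 and 22311 and *Ddx3y* at 2.59 and 0. Against Effector, day, prefix and sex genes cannot be told apart in either group. Between Acute-7d and Acute-2d 41 genes were DEGs, and 18 of the 1958 DEGs were among them; the comparisons share the Acute-7d libraries. Acute-2d library medians for mitosis, -2.59 and -2.92 from the Effector mean, lay between those of the Acute-7d libraries, and those for sterol synthesis, -1.47 and -1.40, lay beside the Acute-7d values of -1.50 and -1.54. Targets of hypoxia-inducible factor had medians of 1.38 and 1.67 in Acute-2d and of 0.73 and 0.81 in Acute-7d. *Tox* was at 85.3 and 55.1 in Acute-2d, and *Gzmd* at 2237 and 2487, both next to the Acute-7d values. *Batf3* was at 30.5 and 29.2 in Acute-2d, above the Acute-7d floor.

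**Figure D4:**
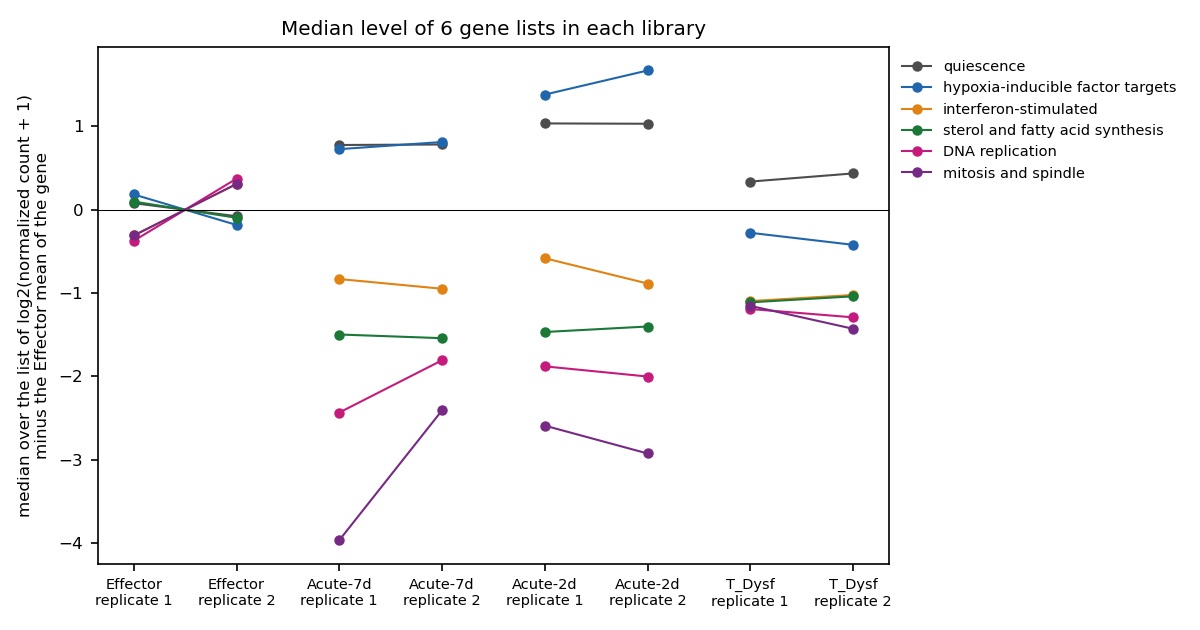
Median over the members of 6 gene lists of log2(normalized count + 1) minus the Effector mean of the gene (y axis) in each of the 8 libraries (x axis), with lines joining the 2 libraries of a group. Mitosis and spindle reaches -3.96 in Acute-7d replicate 1 and -2.41 in replicate 2, while sterol and fatty acid synthesis lies at -1.50 and -1.54.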

How the data were processed

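RNA of sorted P14 CD8+ T cells was sequenced as poly(A) libraries, 2 per group in 4 groups. Per the study's methods, STAR alignment to mm10 was followed by quantification of RefSeq transcripts in Partek Flow, and the authors divided the estimated counts by DESeq2 median-ratio size factors (versions not given in the sources used here). The deposited signal is this normalized count per gene. The methods name a filter on genes with a maximum under 50, but the deposited table still holds such genes. Between 51.03% and 74.87% of low values were whole multiples of 1 read (tolerance 0.01 reads), so no count model was run.

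Groups came from the labels. All 24303 genes of the 8 libraries were fitted on log2(value + 1) with limma 3.58.1 in R 4.3.3 (trended prior variance, 4 residual degrees of freedom), and the step was tested on simulated data. With 2 libraries against 2, an exact permutation test of a single gene cannot go below p = 0.333 (two-sided). Each Acute-7d library was also set alone against the Effector mean. For a gene with no read in a group, the fold is a lower bound, the lowest library of the other group over the higher floor of 3 reads. Of 876 members of 26 gene lists, 861 were in the table, and 10 marker lists were added. The members and lists were chosen with earlier results of these data known. Named genes were the 10 largest DEGs in each direction (mean of at least 50 normalized counts, each Acute-7d library 2-fold from both Effector libraries, without sex markers, pseudogenes, predicted genes and receptor segments), up to 6 DEGs per list, a set kept whatever its values, the 5 list genes that differed most between the Acute-7d libraries, and markers. *Capn11*, *Xlr3b*, *Cdkn1b*, *Rasa2*, *Gbp4*, *Vsir*, *Cd200r1*, *Eno2*, *Vldlr*, *Cbx7* and *Ccnb2* were named after their values were seen. Gene positions and promoters are those of GRCm38 annotation. Alternatives were other pseudocounts, filters, scalings, thresholds and variance priors, a RESUB term, the 4 libraries alone, a replicate block and each library left out. Tables were made with pandas 2.3.3 and numpy 2.4.6 under Python 3.11.15, and figures with matplotlib 3.10.9. Some items are not reported here.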

Additional observations from a re-analysis of the deposited data

How the results depend on the processing

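The count of DEGs between Acute-7d and Effector was within 1.5 times the main count of 1958 under every pseudocount, filter, scaling and variance prior tried. It was 808 (393 DEGs higher in Acute-7d and 415 DEGs lower in Acute-7d) with the RESUB term, 155 (106 and 49) with the 4 libraries alone, 3613 (1741 and 1872) with no fold minimum and 3515 (1866 and 1649) at an unadjusted p. Leaving out 1 library gave between 378 (without Acute-7d replicate 1) and 2156 DEGs (without Effector replicate 1), with 260 to 1015 higher and 118 to 1141 lower, and every omission but that of Effector replicate 1 lowered the count by over 1.5 times (811 without Acute-7d replicate 2, 789 without Effector replicate 2, 1189 and 1190 without an Acute-2d library, 647 and 632 without a T_Dysf library). A group left with 1 library is assumed to vary like the others. Replicate numbers do not pair the samples (correlations of deviations from -0.199 to 0.197), and the replicate block gave 1431 DEGs. Of 147 named genes called, all 147 kept their direction in every setting that gave a value. With the RESUB term 73 were still called, without Acute-7d replicate 1, 32, and with the 4 libraries alone, 3.

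Only genes that were not called reversed, and the cause was not tested. *Cd27* was at 0.062 with the RESUB term, 0.11 at equal 75th percentiles and 0.040 after quantile normalization, and ran from -0.17 to 0.13 with 1 library left out. *Prdm1* was at 0.18 with the RESUB term and ran from -0.99 to 0.18. *Ccl1* was at -1.57 with the RESUB term and ran from -1.57 to 2.09. With 1 library left out, *Ccr7* ran from -0.19 to 1.93, *Ifng* from -0.31 to 0.31, *Tnf* from -0.20 to 1.26 and *Bmf* from -1.62 to 1.22. Depth limits genes near the floor: of the DEGs, 186 were at or under it in Effector and 164 in Acute-7d.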
